A study of Mus musculus with 20 samples.

Results

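Regulatory T cells (Tregs) given the partial agonist IL-2-REH for 4 hr were compared with Tregs given IL-2 for the same time, to ask how far the transcriptional response to IL-2 depends on the strength of the signal. The comparison used 6 RNA sequencing libraries of the 20 in the series, 3 for each cytokine, numbered 1 to 3 in both groups. Tregs are CD4+ cells marked by the transcription factor Foxp3. They were enriched as CD4+ cells and sorted by GFP from the spleen and lymph nodes of B6-Foxp3EGFP mice, in which GFP reports Foxp3, and the sample records give the strain as C57BL/6N. Each group received either IL-2 or IL-2-REH at 200 nM, and 3 unstimulated Treg libraries served as the reference for both. Treg libraries at 1.5 hr, 3 for each cytokine at 200 nM, and 5 CD8+ T cell libraries were set beside them. By the study's protocol, the CD8+ T cells were isolated with a kit from C57BL/6J mice. Cell type therefore cannot be told apart from mouse line and isolation. Nothing in the records ties a library to an animal, so p-values measure the spread between libraries, which may in part be technical.

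IL-2 acts through a receptor of 3 chains. The α chain (Il2ra) captures the cytokine, and the β chain (Il2rb) and the common γ chain (Il2rg) carry the kinases JAK1 and JAK3, which phosphorylate the transcription factor STAT5. Tregs hold high amounts of the α chain and depend on IL-2 for Foxp3 expression and survival. IL-2-REH carries substitutions in the face of IL-2 that binds the common γ chain, which weaken the recruitment of that chain.

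The sorted cells carried the RNA of Tregs. Over the 6 libraries, the RPKM (a read count corrected for the length of the exons and the size of the library) of Foxp3 was 67.2 to 211, that of Ctla4, an inhibitory receptor of Tregs, 106 to 330 and that of Cd4 56.4 to 101. Reads on genes numbered 26576384, 63903764 and 20201392 in IL-2 replicates 1 to 3, and 25363734, 44460554 and 38352477 in the IL-2-REH libraries. IL-2 replicate 3 stood apart from the rest. It was the shallowest, had the fewest genes with a read (15420), and its log2 ratios to the same-numbered IL-2-REH library had an SD across genes of 0.631, against 0.249 and 0.245 in the other pairs. Among 10473 expressed genes, 104 passed a ratio of 2 log2 units in either direction in the replicate 3 pair, against 2 and 3 in the pairs of replicates 1 and 2. For named genes whose log2 fold change moved by more than 1.5 times without this library, that value is given as well.

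Of 15009 genes tested, 4 fell with IL-2-REH relative to IL-2 at an adjusted p-value under 0.05 (0.0267% of the genes tested) and none rose, in edgeR's quasi-likelihood test with Benjamini-Hochberg adjustment. These were Txnrd1, Fam19a3, Ppp1r3b and Gpsm2. At an unadjusted p-value under 0.05, there were 558 genes (3.72%), of which 355 were lower and 203 higher with IL-2-REH. That share was below the threshold itself, so the count alone shows no excess of differences. DESeq2 called 59 genes, 53 lower and 6 higher, while limma on log2(RPKM + 1) or log2(RPKM + 0.1) called none, and neither did edgeR fitted to the 6 libraries alone, with or without the replicate number as a block. Same-numbered libraries deviated together from their group means, and with the replicate number as a block in the fit of all 15 Treg libraries 10 genes were called (0.0666%), 9 lower (0.06%) and 1 higher (0.00666%). The block added Rragd, Gcsh, Abtb2, Rnf19b and Ticrr among the lower genes and Atp6v0d2 as the higher one. No gene was called without IL-2-REH replicate 2 or 3, or with replicate 1, 2 or 3 left out of every group. One gene was called without IL-2-REH replicate 1 or IL-2 replicate 2, 4 without IL-2 replicate 1 and 5 without IL-2 replicate 3.

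Txnrd1 encodes the cytosolic thioredoxin reductase, which keeps thioredoxin reduced with electrons from NADPH. Its transcript NM_001042514 lies on chromosome 10 of GRCm38, from 82833951 to 82897724 on the plus strand, and reads were counted over its exons. Its RPKM was 27.8, 28.6 and 28.8 in IL-2 replicates 1 to 3, 14.6, 13.2 and 11.1 in the IL-2-REH libraries, and 12.5, 16.3 and 14.04 in unstimulated Tregs. All IL-2-REH libraries were below all IL-2 libraries, and 2 of them lay within the unstimulated range and the other below it. The log2 fold change was -1.20 (SE 0.15, 95% interval -1.52 to -0.88, edgeR adjusted p = 0.013, and 0.0173 with the block). Eid3 is annotated inside the Txnrd1 locus, but its own row held only 34, 116 and 91 reads with IL-2, against 4599, 8883 and 3332 for Txnrd1.

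Fam19a3 (now Tafa3, NM_183224) encodes a small secreted protein of the TAFA family, which resembles chemokines. It lies on the minus strand of chromosome 3, from 104767405 to 104779542. Its RPKM was 3.95, 5.42 and 3.41 with IL-2, against 1.07, 1.15 and 0.922 with IL-2-REH, beside 0.309, 0.765 and 0.469 in unstimulated cells. The IL-2-REH libraries were above all unstimulated ones and below all IL-2 ones. The log2 fold change was -2.08 (SE 0.27, 95% interval -2.65 to -1.51, edgeR adjusted p = 0.013, and 0.00552 with the block), and it was the only called gene past an absolute value of 2. The 2 other TAFA genes that passed the filter were not called. Their 95% intervals were -4.78 to 4.56 (Fam19a1) and -5.39 to 3.84 (Fam19a2). Intervals this wide cannot show whether the change was particular to Fam19a3.

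Ppp1r3b (NM_177741, chromosome 8, 35375694 to 35388139) encodes a subunit that directs protein phosphatase 1 to glycogen. Its RPKM was 4.30, 5.80 and 3.88 with IL-2, against 1.81, 1.89 and 1.17 with IL-2-REH, a log2 fold change of -1.59 (SE 0.21, 95% interval -2.03 to -1.14, edgeR adjusted p = 0.013). Unstimulated Tregs held 1.09, 1.31 and 1.24, so IL-2-REH replicate 3 lay inside the unstimulated range and the others above it. It was the only one called of 21 tested genes of glycogen metabolism and phosphatase targeting, beside 0.0267% of all genes tested. That list was chosen with earlier results of these data known, so the call of 1 member is not independent evidence. The median log2 fold change of the list was -0.11.

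Gpsm2 (NM_029522, chromosome 3, 108678270 to 108722331, minus strand) encodes LGN, a modulator of inhibitory G proteins that orients the mitotic spindle. Its RPKM was 7.73, 10.03 and 7.82 with IL-2, against 3.14, 4.25 and 2.98 with IL-2-REH, and 1.34, 1.95 and 1.42 in unstimulated cells. The 3 groups did not overlap, and IL-2-REH stood in the middle. The log2 fold change was -1.37 (SE 0.21, 95% interval -1.82 to -0.93, edgeR adjusted p = 0.0429, and 0.0233 with the block). Exons of Clcc1 on the other strand overlap this gene, and the sources used here do not say whether counting used strand.

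**Figure D1:**
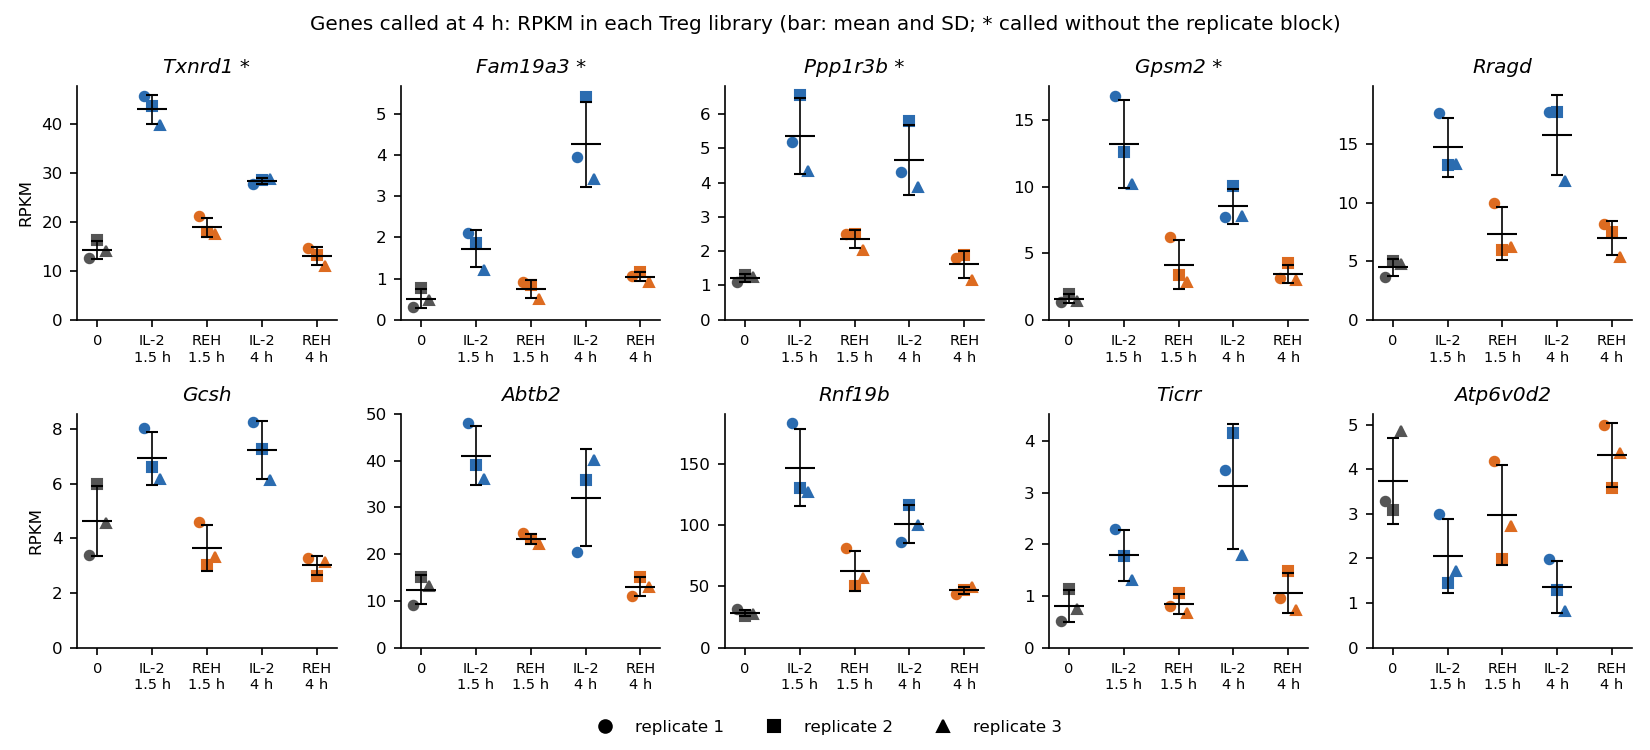
RPKM (vertical axes, from 0) of the 10 genes called at 4 hr with or without the replicate block, in unstimulated Tregs (0), and in Tregs given IL-2 (blue) or IL-2-REH (orange) for 1.5 or 4 hr. Symbols are libraries by replicate number, and bars give the mean and SD of 3 libraries. In all 10 panels the 4 hr IL-2 and IL-2-REH libraries do not overlap, with Atp6v0d2 alone higher with IL-2-REH. The genes were called from these libraries, so the lack of overlap follows in part from that choice. Over all genes tested, every IL-2-REH library was below every IL-2 library for 2.36% and above for 5.43%.

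Promoter windows of RefSeq (GRCm38.p6, 250 bases before the annotated start and 20 after it) are shown for the 3 called genes in which a motif was found, and for Cish, a classical STAT5 target. Letters searched on both strands were TTCNNNGAA for STAT factors, TGACNNNGC for the core of the antioxidant response element and CACGTG for the E-box bound by Myc. Capitals mark matches, and position 1 is the first transcribed base.
Cish, chr9:107296409-107296678, plus strand: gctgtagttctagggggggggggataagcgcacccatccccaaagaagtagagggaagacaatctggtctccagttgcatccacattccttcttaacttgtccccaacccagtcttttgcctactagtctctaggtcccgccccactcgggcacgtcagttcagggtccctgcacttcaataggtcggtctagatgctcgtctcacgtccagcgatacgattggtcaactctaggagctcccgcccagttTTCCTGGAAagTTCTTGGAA
Fam19a3, chr3:104777528-104777797, minus strand: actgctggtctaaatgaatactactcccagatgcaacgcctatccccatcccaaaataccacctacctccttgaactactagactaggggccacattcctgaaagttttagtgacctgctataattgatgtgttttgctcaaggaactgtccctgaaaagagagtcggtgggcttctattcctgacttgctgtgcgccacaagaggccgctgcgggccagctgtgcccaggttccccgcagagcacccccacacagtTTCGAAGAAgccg
Gpsm2, chr3:108722280-108722549, minus strand: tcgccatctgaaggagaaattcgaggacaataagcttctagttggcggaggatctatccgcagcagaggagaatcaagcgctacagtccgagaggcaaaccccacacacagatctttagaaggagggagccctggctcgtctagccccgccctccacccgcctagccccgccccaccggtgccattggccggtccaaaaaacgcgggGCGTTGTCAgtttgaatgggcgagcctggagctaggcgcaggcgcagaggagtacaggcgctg
Txnrd1, chr10:82858956-82859225, plus strand: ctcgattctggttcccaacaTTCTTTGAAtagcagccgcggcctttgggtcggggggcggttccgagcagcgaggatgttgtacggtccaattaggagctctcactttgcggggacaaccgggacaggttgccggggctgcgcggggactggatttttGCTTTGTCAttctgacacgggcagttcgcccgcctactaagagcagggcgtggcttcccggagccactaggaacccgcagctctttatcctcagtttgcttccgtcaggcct

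The Cish window held STAT letters at positions 1 and 12, and that of Fam19a3 held them at position 8. The Fam19a3 window belongs to a start that lies inside the span of the counted transcript, and that of Gpsm2 to one slightly inside it. Gpsm2 had the antioxidant letters at position -43. Of 3 starts listed for Txnrd1, that of the counted transcript had none of the motifs, the window shown had the STAT letters at -230 and the antioxidant letters at -92, and another had the STAT letters at -73. Of all 32851 windows, 7.58% held the STAT letters, 11.1% the antioxidant letters and 6.57% the E-box. Windows of Abtb2, Gcsh, Rnf19b, Rragd and Ticrr held none of the 3, and Ppp1r3b and Atp6v0d2 were not in the table. These matches are letters in a window and do not show binding.

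Among the genes that the block added to the calls of the edgeR fit of all Treg libraries, Rragd, Rnf19b and Abtb2 were lower with IL-2-REH. The block was not needed for a call in every method. DESeq2 without it called Rragd, Rnf19b and Abtb2 (DESeq2 adjusted p = 3.3e-06, 2.9e-06 and 5.6e-06). It also called Gcsh, Ticrr and Atp6v0d2, while limma called none of these genes. Rragd encodes a Rag GTPase that relays amino acid supply to mTORC1 at the lysosome. Its RPKM was 17.8, 17.7 and 11.9 with IL-2, against 8.16, 7.48 and 5.39 with IL-2-REH (log2 fold change -1.23, edgeR adjusted p = 0.0531, and 0.0233 with the block). Rnf19b, a RING-type ubiquitin ligase, had an RPKM of 85.9, 117 and 101 with IL-2, against 43.8, 47.4 and 49.2 with IL-2-REH (log2 fold change -1.17, edgeR adjusted p = 0.0611, and 0.0406 with the block). Both genes stood in unstimulated cells below every IL-2-REH library, at 3.63 to 5.03 for Rragd and 25.9 to 31.2 for Rnf19b. Abtb2, which encodes a protein with ankyrin repeats and a BTB domain, was at 20.5, 35.8 and 40.1 with IL-2, against 11.02, 15.1 and 12.98 with IL-2-REH (log2 fold change -1.38, edgeR adjusted p = 0.0611, and 0.0233 with the block).

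Gcsh, the hydrogen carrier of the glycine cleavage system, had an RPKM of 8.26, 7.27 and 6.16 with IL-2, against 3.29, 2.61 and 3.12 with IL-2-REH (log2 fold change -1.33, edgeR adjusted p = 0.0552, and 0.0406 with the block). Its IL-2-REH libraries lay below all unstimulated libraries, which held 3.41, 5.98 and 4.55. Ticrr, which helps to load the replicative helicase's partners at origins, was at 3.44, 4.16 and 1.79 with IL-2, against 0.969, 1.48 and 0.732 with IL-2-REH (log2 fold change -1.62, edgeR adjusted p = 0.137, and 0.0233 with the block). Exons of Kif7 on the other strand overlap it. Atp6v0d2, a subunit of the vacuolar proton pump, went the other way, at 1.99, 1.28 and 0.822 with IL-2, against 5.001, 3.57 and 4.37 with IL-2-REH (log2 fold change 1.603, edgeR adjusted p = 0.288, and 0.0406 with the block). Unstimulated Tregs held 3.28, 3.08 and 4.85 of it, above every IL-2 library.

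The same contrast at 1.5 hr was made with libraries that the 4 hr contrast did not use. Of the 355 genes lower at 4 hr at an unadjusted p-value under 0.05, 314 (88.5%) were also below 0 at 1.5 hr, with a median log2 fold change of -0.31. Of the 203 higher genes, 30 (14.8%) were below 0 at 1.5 hr, and among all genes tested 45.3% were. Gpsm2 (-1.70) and Txnrd1 (-1.19) were the genes called at 1.5 hr (edgeR adjusted p = 0.00994 for both, 0.0133% of genes tested). This count was 15 with DESeq2, 0 with limma at either pseudocount, 0 with the 6 libraries of that time alone and 1075 with those libraries and the block. No gene was called for a change of the difference between the time points in edgeR's quasi-likelihood test, and DESeq2 called none either. In the edgeR test, 47 of 15009 genes had an unadjusted p-value under 0.05, a share below the threshold itself. The lack of calls does not show that the difference stayed the same. Fam19a3 had log2 fold changes of -1.19 at 1.5 hr and -2.08 at 4 hr, while its RPKM with IL-2 was 2.097, 1.87 and 1.22 at 1.5 hr, below the 4 hr levels. Cdk6, a G1 kinase, had values of -0.26 at 1.5 hr and -1.21 at 4 hr. The unadjusted p-value for the change with time was 0.0291 for Fam19a3 and 0.017 for Cdk6, and neither passed adjustment.

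**Figure D2:**
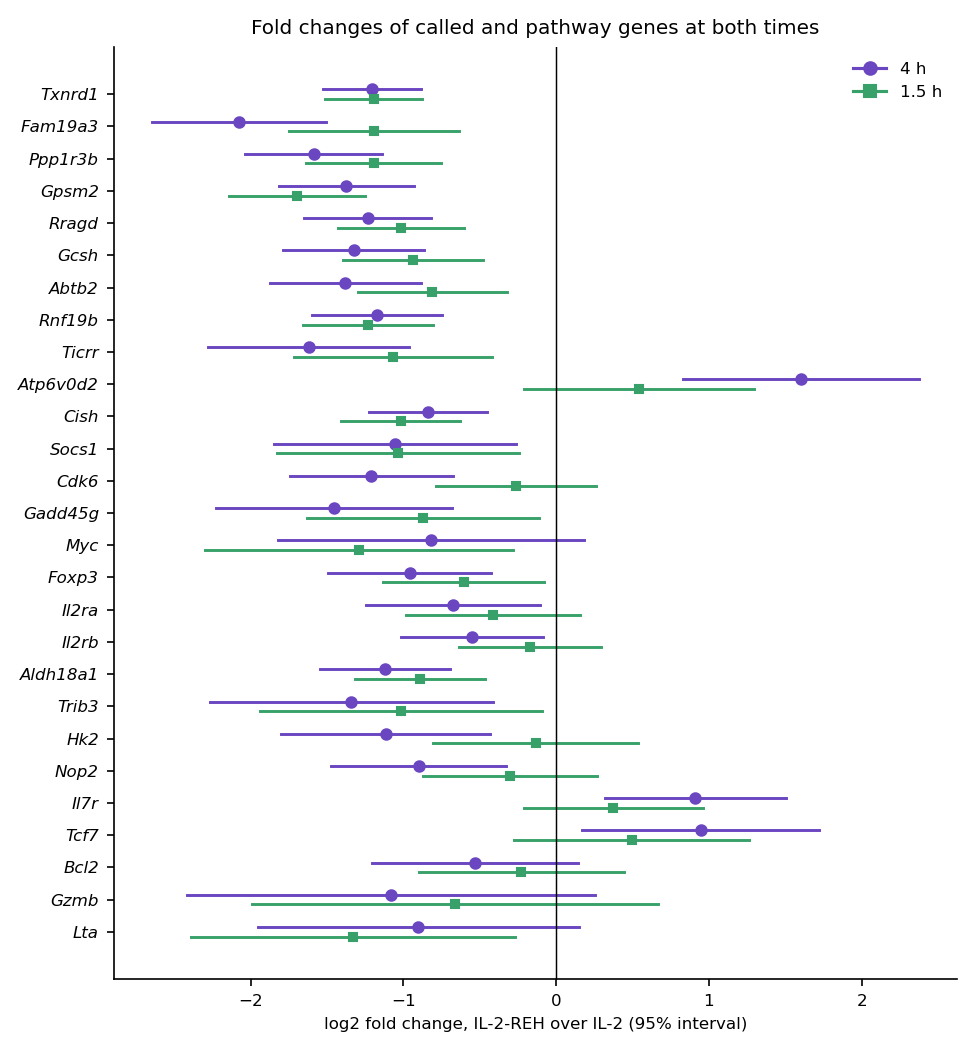
Log2 fold change of IL-2-REH over IL-2 (horizontal axis) with its 95% interval from edgeR, at 4 hr (circles) and 1.5 hr (squares), for the 10 called genes and 17 genes of the IL-2 pathway and of the lists described in the text. The lower called genes sit left of 0 at both times with overlapping intervals, and the intervals of Myc, Bcl2, Gzmb and Lta at 4 hr include 0.

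The difference between the cytokines ran through the genes that IL-2 raised early, at 1.5 hr. With IL-2, 117 genes were then above unstimulated Tregs (edgeR adjusted p-value under 0.05, 0.78% of genes tested), in libraries that the 4 hr contrast does not compare. Both contrasts came from the same fit, with a shared gene filter, scaling and estimate of spread. Same-numbered libraries may also share a source. At 4 hr, 113 of the 117 genes were lower with IL-2-REH and 4 were higher (Acvr1c, Zfp747, Sema7a and Mir7014, with log2 fold changes of 0.11 or less). Their median log2 fold change was -0.62 (quartiles -0.99 and -0.38), against 0.01 over all genes tested. For 52 of the 117 (44.4%), every IL-2-REH library was below every IL-2 library, against 2.36% of all genes. The median log2 ratio of RPKM + 1 over the list was -0.39, -0.52 and -0.46 in pairs 1, 2 and 3. IL-2 lowered 11 genes at 1.5 hr (0.0733%). At 4 hr all 11 were higher with IL-2-REH, with a median of 0.48, and for 7 of them every IL-2-REH library was above every IL-2 library, against 5.43% of all genes.

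The list itself changed with the fit and the libraries used. With the block it held 206 genes (1.37%), of which 191 were lower with IL-2-REH at 4 hr (median -0.58), and 69 genes were below unstimulated cells (0.46%), of which 55 were higher with IL-2-REH at 4 hr. Without replicate 1 in every group it grew to 1315 genes, of which 734 were lower (median -0.045), without replicate 2 it held 1 gene (-1.44), and without replicate 3 it held none. Held to the 117 genes, or the 110 of them tested in 3 of the fits, the median stayed between -0.68 and -0.51 over 26 other fits, and it was -0.63 without IL-2 replicate 3. The fits that left out a 1.5 hr library each gave -0.62. They could hardly move the median, since the 4 hr contrast does not use those libraries.

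**Figure D3:**
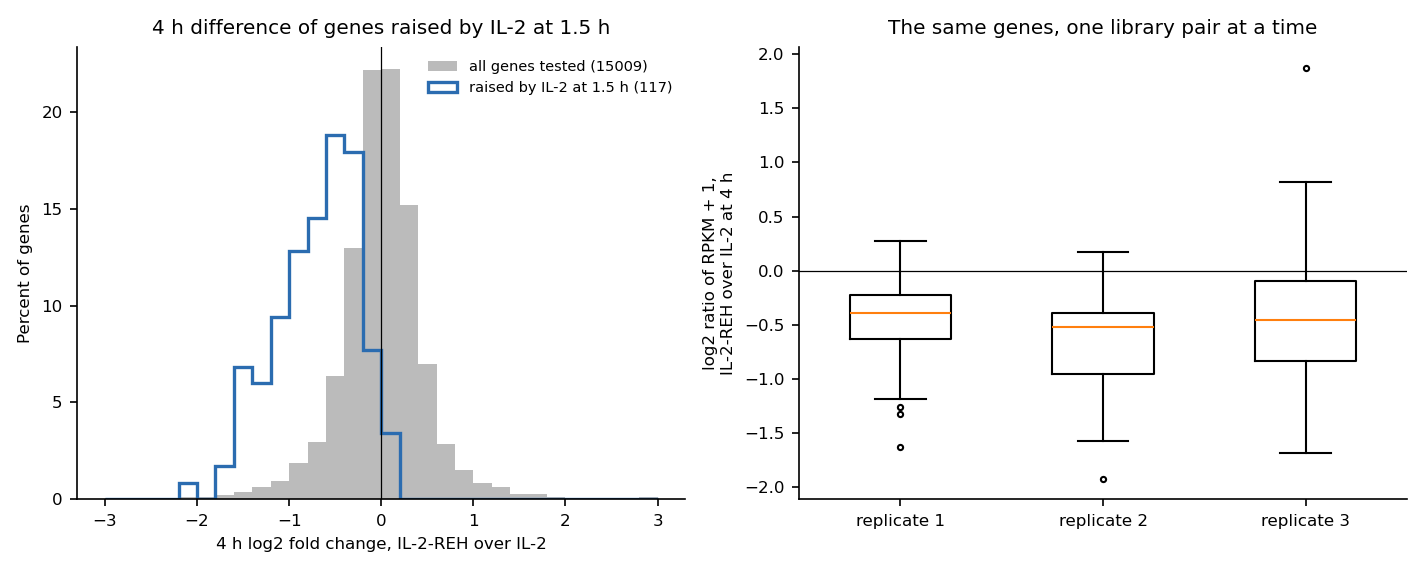
Left, the distribution of 4 hr log2 fold changes (IL-2-REH over IL-2) as a percentage of genes, for all 15009 genes tested (grey) and for the 117 genes raised by IL-2 at 1.5 hr (blue line), whose median was -0.62. Right, log2 ratios of RPKM + 1 of these genes in each same-numbered pair, with boxes at the quartiles, the median as a line, whiskers to 1.5 times the box and points beyond. The medians of the 3 pairs are all below 0.

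Receptor and kinase genes held few large differences. Of 19 genes for the IL-2 receptor and JAK-STAT5 signalling, none was called, and the median log2 fold change was -0.08, and -0.04 without IL-2 replicate 3. Il2ra had an RPKM of 197, 282 and 101 with IL-2, against 133, 151 and 90 with IL-2-REH (log2 fold change -0.67, 95% interval -1.24 to -0.10, edgeR adjusted p = 1). Il2rb was at 360, 437 and 243 with IL-2, against 284, 289 and 166.4 with IL-2-REH (-0.55, 95% interval -1.02 to -0.09, edgeR adjusted p = 1). For both chains the groups overlapped across replicate numbers, while the IL-2-REH library was the lower in each pair. Il2rg had the opposite sign (0.57, 95% interval -0.02 to 1.16), with IL-2 replicate 3 lowest of the 6 at 62.7, and was at 0.26 without that library.

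Targets and feedback inhibitors of STAT5 were mostly lower with IL-2-REH, though none was called. Of 25 genes, 20 had a negative log2 fold change (median -0.47), as did 48.9% of all genes tested, and 8 were lower and 1 higher at an unadjusted p-value under 0.05, beside 2.37% and 1.35% of all genes. Without replicate 3, 22 of 25 were negative (median -0.57). Cish, a feedback inhibitor of the receptor that STAT5 induces, had an RPKM of 138, 224 and 135 with IL-2, against 85.9, 112 and 90.1 with IL-2-REH (log2 fold change -0.84, 95% interval -1.23 to -0.45, edgeR adjusted p = 0.23, and 0.113 with the block). It stood at 54.7, 65.5 and 54.03 in unstimulated cells, below every IL-2-REH library. Taking the rise above the same-numbered unstimulated library as the full response, IL-2-REH gave 37.1% ± 7.80 (SD, n = 3) of the IL-2 rise of Cish. By the same measure it gave 27.0% ± 2.31 for Gpsm2, 25.4% ± 3.59 for Rnf19b, 14.9% ± 6.32 for Fam19a3 and -10.4% ± 21.2 for Txnrd1 (SD, n = 3 each). Gpsm2, Rnf19b, Fam19a3 and Txnrd1 were called as lower from the same libraries, with or without the block. Their low shares follow in part from that choice.

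Socs1, the inhibitor of JAK kinases, was at 86.1, 102 and 56.3 with IL-2, against 53.8, 37.4 and 30.5 with IL-2-REH (log2 fold change -1.05, 95% interval -1.85 to -0.26, edgeR adjusted p = 1), without overlap. Cdk6 was at 12.1, 16.7 and 13.3 with IL-2, against 7.64, 8.17 and 3.42 with IL-2-REH, again without overlap (log2 fold change -1.21, edgeR adjusted p = 0.203). Gadd45g, a stress-responsive growth regulator, had a log2 fold change of -1.45 (95% interval -2.22 to -0.68, edgeR adjusted p = 0.417), with IL-2 replicate 3 at 19.3 RPKM against 6.21 and 11.6 in the others, and was at -0.87 without that library. Bcl6, a repressor that STAT5 holds down, had the largest of the 5 positive log2 fold changes in the list. It was at 5.91, 10.2 and 4.23 with IL-2, against 11.3, 38.1 and 16.8 with IL-2-REH (log2 fold change 1.64, 95% interval 0.18 to 3.10, edgeR adjusted p = 1). The other positive members were at 0.11 or less. For Myc, the log2 fold change was -0.82 (95% interval -1.82 to 0.18), and for the survival gene Bcl2 it was -0.53 (95% interval -1.20 to 0.14).

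Among 29 tested genes of Treg identity and suppression, none was called, and the median was -0.08, with 16 negative. Without IL-2 replicate 3 the median was -0.27, with 21 of 29 negative, and without replicate 3 in every group it was -0.20, with 20 negative. Foxp3 was at 151, 193 and 211 with IL-2, against 113, 124 and 67.2 with IL-2-REH, without overlap (log2 fold change -0.96, 95% interval -1.49 to -0.43, edgeR adjusted p = 0.507, and 0.218 with the block). Unstimulated Tregs held 67.0, 92.8 and 65.2 of it. Exons of other annotated genes, Flicr on the same strand among them, overlap Foxp3. Ccr4, a chemokine receptor, and Itgb8, an integrin chain that activates TGF-β, had log2 fold changes of -0.92 and -1.24, with unadjusted p-values of 0.0245 and 0.032 from edgeR.

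Effector genes were not called in either direction, and their intervals were wide. Over 21 tested genes for cytokines, TNF ligands and granzymes, the median log2 fold change was -0.20, and the interval of 1 gene lay within 1 log2 unit of 0. Gzmb, a cytotoxic protease, was at 22.1, 22.8 and 6.13 with IL-2, against 16.1, 5.49 and 3.02 with IL-2-REH (-1.08, 95% interval -2.42 to 0.25). Lta, a TNF-family ligand, was at 50.5, 68.9 and 19.9 with IL-2, against 26.3, 18.8 and 29.8 with IL-2-REH (-0.90, 95% interval -1.95 to 0.15), and its replicate 3 pair ran against the other 2. Ifng was at 0.1 to 2.47 RPKM in the 6 libraries, and its log2 fold change was -0.38, and -0.87 without IL-2 replicate 3.

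Among 23 genes of quiescence and lymph node homing, 7 had a negative log2 fold change, against 48.9% of all genes tested, and the median was 0.17. None was called, and 3 were higher at an unadjusted p-value under 0.05, beside 1.35% of all genes. Without replicate 3 in every group, 6 were negative (median 0.14) and 1 was higher at that p-value. Il7r, the α chain of the IL-7 receptor, was at 23.5, 38.7 and 15.6 with IL-2, against 47.8, 65.6 and 37.4 with IL-2-REH and 56.6 to 86.1 in unstimulated cells (log2 fold change 0.91, 95% interval 0.32 to 1.50, edgeR adjusted p = 0.898). Tcf7, a transcription factor of resting T cells, was at 50.4, 95.9 and 38.9 with IL-2, against 84.2, 170 and 114 with IL-2-REH (0.95, 95% interval 0.17 to 1.72, edgeR adjusted p = 1). In both genes the IL-2-REH library was the higher in each of the 3 pairs, although the groups overlapped.

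Growth and metabolic lists differed in how far they moved. Of 34 ribosome biogenesis genes, 29 had a negative log2 fold change (median -0.40), against 48.9% of all genes tested. None was called, and 8 were lower at an unadjusted p-value under 0.05, beside 2.37% of all genes. Without IL-2 replicate 3, the median of this list was -0.14, with 25 negative and 1 gene lower at an unadjusted p-value under 0.05. Nop2, a ribosomal RNA methyltransferase, reached 27.3 RPKM in that library against 11.5 and 17.5 in the others, and its log2 fold change was -0.90 with that library and -0.43 without it. The amino acid stress and one-carbon list held 23 genes with a median of -0.15. In it, Aldh18a1, which starts proline synthesis, was at 72.3, 77.4 and 59.7 with IL-2, against 41.7, 33.9 and 25.2 with IL-2-REH (log2 fold change -1.12, edgeR adjusted p = 0.0852), and Trib3, a pseudokinase induced by amino acid shortage, had a log2 fold change of -1.34 (edgeR adjusted p = 0.98, and 0.0608 with the block). The glycolysis list had a median of -0.23 over 21 genes, and -0.06 without IL-2 replicate 3.

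Of 35 genes for thioredoxin, glutathione and the NRF2 response, Txnrd1 was the one called, beside 0.0267% of all genes tested. This list was chosen with earlier results of these data known, so the call of 1 member is not independent evidence. The median of the list was 0.06, and 0.0016 without IL-2 replicate 3. The 36 genes of DNA replication and mitosis had a median of 0.02 and a range of -0.40 to 0.56, with none at an unadjusted p-value under 0.05, and for 26 of them the 95% interval lay within 1 log2 unit of 0. A list of 15 matrix and surface genes induced by IL-2, which holds Fam19a3 and Gpsm2, had a median of -0.68. In it, 6 were lower at an unadjusted p-value under 0.05, beside 2.37% of all genes. The list was put together from these samples, so neither its direction nor this count is independent evidence. Of its members, 11 had a negative log2 fold change and 4 a positive one. Ramp3 and Gls2, which the study names among the genes that IL-2 regulated in Tregs, were among the positive ones. Ramp3 was at 0.46 (95% interval -1.95 to 2.86). Gls2 was at 0.25 (95% interval -2.01 to 2.51), and at 0.04 without IL-2 replicate 3. Interferon-stimulated genes, immediate early genes, BCL2 family genes and G1 cyclin and CDK genes had medians between -0.10 and 0.26, with none called. Cholesterol and fatty acid synthesis genes had a median of -0.16.

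**Figure D4:**
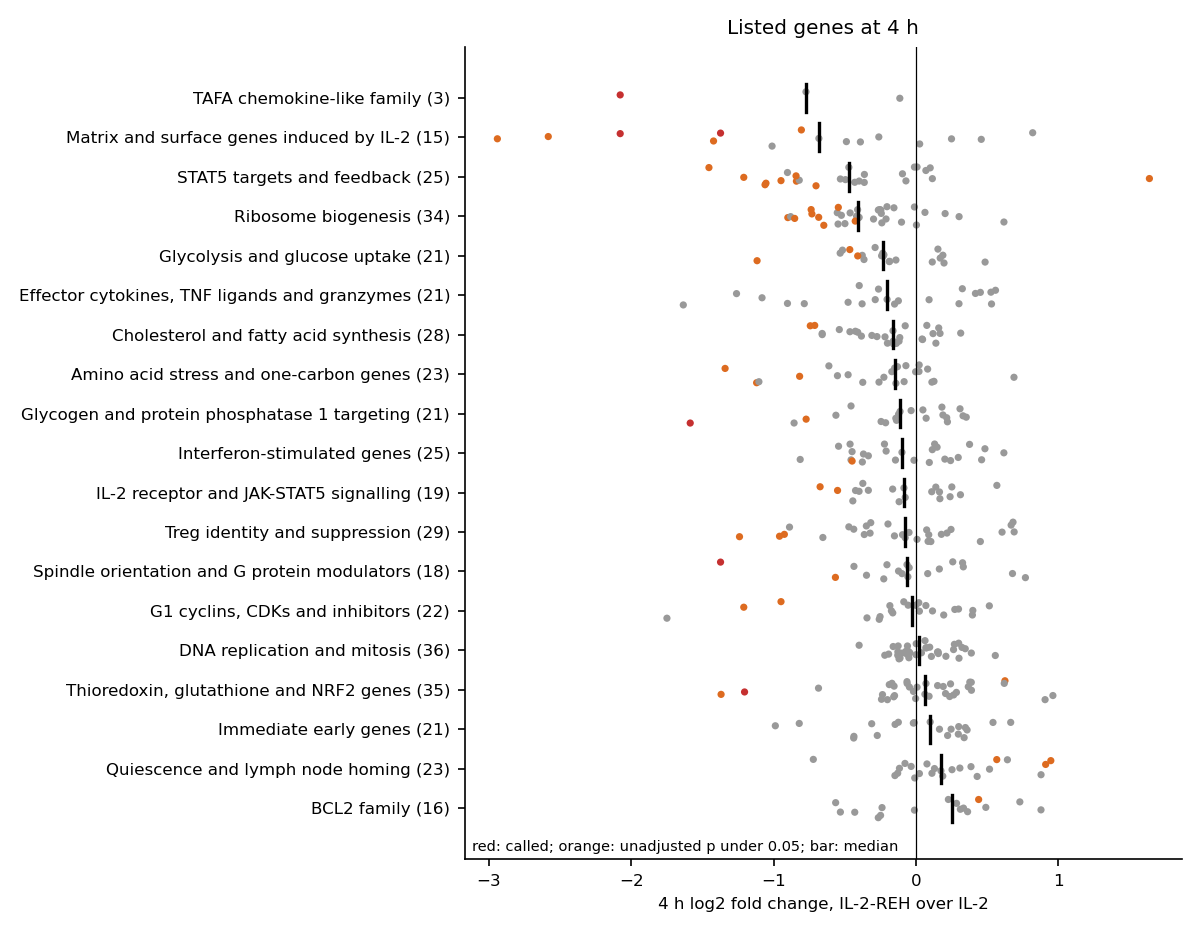
Log2 fold change at 4 hr (IL-2-REH over IL-2, horizontal axis) of each tested gene in 19 lists, with the number tested in brackets and the median as a bar. Red points are called, orange points have an unadjusted p-value under 0.05. STAT5 targets (median -0.47) and ribosome biogenesis genes (-0.40) lie mostly left of 0, and DNA replication genes (0.02) lie around it.

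Of the genes at an unadjusted p-value under 0.05 that had the same direction in all 3 pairs and averaged 1 RPKM or more, those with the lowest fold changes were mainly rows of microRNA precursors, which are short and lie in longer transcripts, so their reads may belong to the host. Mir92-1 and Mir20a lie in exons of Mir17hg, with log2 fold changes of -2.31 and -2.21. The row of Mir17hg itself was at -0.37 (95% interval -1.06 to 0.32). Its log2 ratios of RPKM + 1 were -0.23, -0.81 and 0.30 in pairs 1, 2 and 3. The RPKM of Mir20a was 1.58, 4.00 and 18.1 with IL-2, against 1.29, 2.55 and 1.70 with IL-2-REH, and without IL-2 replicate 3 its log2 fold change was -0.58, and that of Mir92-1 -1.20. That library was also the highest for Mir6236 (3679 against 269 and 468) and Mir3060 (20.8 against 2.81 and 2.44), whose log2 fold changes were -2.58 and -2.43 with it and -0.40 and -0.58 without it. Mir6904, in an exon of Parp1, was at 2.35 to 2.71 with IL-2 and 0.342 to 0.493 with IL-2-REH (-2.50, edgeR adjusted p = 1). At the other end were Mir7077 (2.12), Mir1892 (1.78), Bcl6, Atp6v0d2 and Mgst3, a microsomal glutathione transferase (1.47, 95% interval 0.41 to 2.53).

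Transcript length moved with the comparison. The tested genes were split by transcript length into 4 classes of equal size. The median 4 hr log2 fold change was 0.15 in the class of the shortest transcripts and -0.11 in that of the longest. By the log2 ratio of RPKM + 1, these medians were 0.13 and -0.01 in the replicate 1 pair, 0.0028 and 0.01 in the replicate 2 pair, and 0.25 and -0.05 in the replicate 3 pair. Of the 10 called genes, 5 were in the class of the longest transcripts, among them Fam19a3 and Ppp1r3b. Among the 117 genes raised by IL-2, the median was -1.01 in the shortest class (8 genes) and -0.59 in the longest (52 genes). The part of length in the single calls was not tested.

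RNA of red blood cells and neutrophils was highest in the replicate 3 libraries of both cytokines. The summed RPKM of 12 erythroid markers was 9.52, 7.89 and 145 with IL-2, against 8.76, 9.21 and 204 with IL-2-REH, and that of 11 dendritic cell and neutrophil markers was 19.2, 27.9 and 78.1 against 22.7, 24.3 and 234. The sum of 17 macrophage and monocyte markers was 14.1, 43.1 and 27.8 with IL-2, against 20.2, 51.3 and 42.5 with IL-2-REH, and that of 10 B cell markers was 3.27, 3.94 and 9.59 against 4.67, 4.79 and 20.7. For both lists the IL-2-REH library was the higher in each of the 3 pairs, although the groups overlapped. Sums of 10 CD8 T and NK cell markers (7.25 to 23.8) were higher with IL-2-REH in pairs 1 and 3 and lower in pair 2. No marker of these lists was at 0 in all 6 libraries. The exact two-sided permutation p-value of the 5 sums, which does not use the pairs, was 0.5 to 0.8, where 3 libraries against 3 cannot go below 0.1. The part of these cells in the results was not tested. In bulk RNA, fewer cells of a type and less RNA per cell cannot be told apart.

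**Figure D5:**
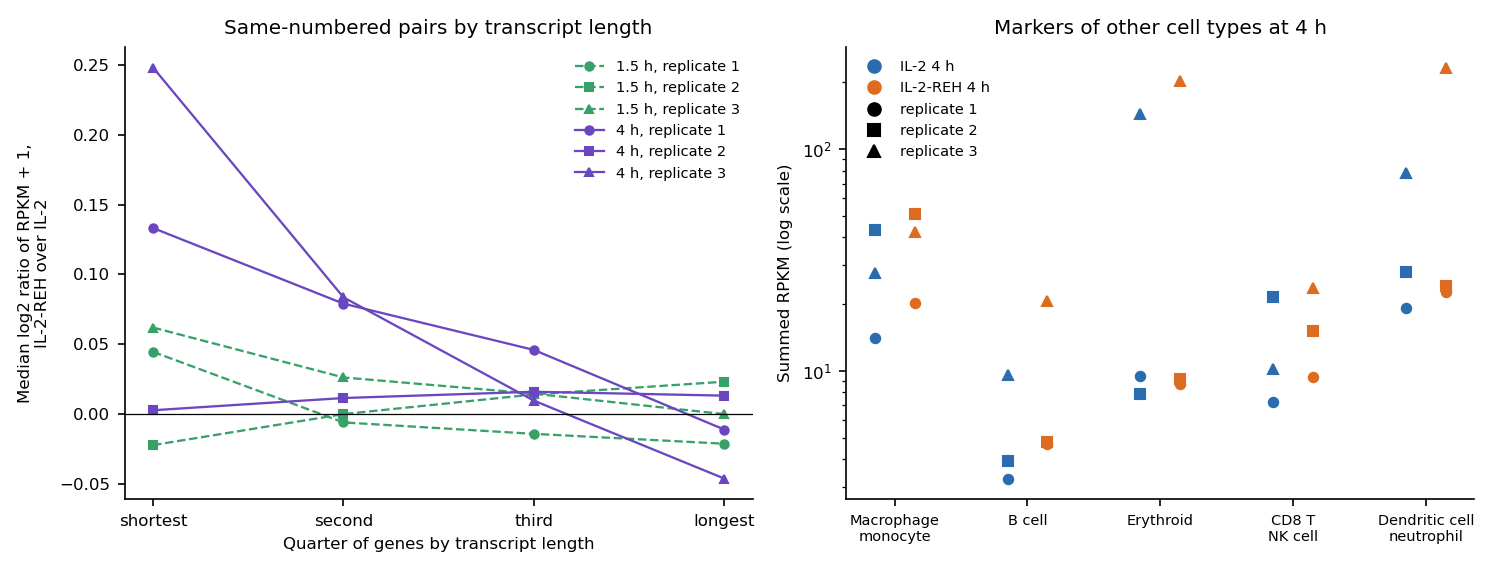
Left, the median log2 ratio of RPKM + 1 (IL-2-REH over IL-2) in each of 4 length classes of the tested genes, for each same-numbered pair at 1.5 hr (dashed) and 4 hr (solid). The replicate 3 pair at 4 hr runs from 0.25 to -0.05. Right, summed RPKM (log axis) of markers of 5 groups of other cell types in each 4 hr library. Replicate 3 was highest for erythroid markers and for the joint sum of dendritic cell and neutrophil markers, most of which was S100a8 and S100a9 there.

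For genes not called, the precision of 3 libraries a group was limited. The 95% interval of the log2 fold change had a median half-width of 0.713. It lay within 1 log2 unit of 0 for 7529 genes (50.2%) and within 2 for 12053 (80.3%), so in the remaining genes a difference beyond that size was not excluded by the interval.

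In CD8+ T cells, with 1 library per group and thus no test, the 4 hr RPKM under IL-2 and under IL-2-REH was 27.8 and 11.6 for Txnrd1, 2.72 and 0.234 for Fam19a3, and 26.1 and 2.45 for Cish. For Gpsm2 it was 3.50 and 3.10.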

How the data were processed

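Reads were 50-base single-end. Per the labels, the authors used Bowtie2 2.2.6, TopHat2 2.1.1, SAMtools 0.1.8 and bedtools 2.25.0 with mm10 (GRCm38), kept uniquely mapped reads, and deposited raw read counts on the exons of 31682 RefSeq transcripts beside the RPKM the authors derived from them. The most-read transcript over the 20 libraries stood for each of 23992 symbols.

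Counts of the 15 Treg libraries (5 groups) were fitted in edgeR 4.0.16 (R 4.3.3, TMM, filterByExpr, quasi-likelihood F test, Benjamini-Hochberg adjustment), with calls at an adjusted p-value under 0.05. RPKM gave levels and pair ratios (pseudocount 1). Replicate numbers come from the sample titles. Deviations from group means correlated at 0.793, 0.763 and 0.372 in the 3 same-numbered 4 hr pairs, each over 0.1, so the numbers were taken to pair the libraries. Alternatives were the block, DESeq2 1.42.0, limma 3.58.1 (log2 of RPKM plus 1 or 0.1), RLE scaling, other filters, samples or transcripts, and libraries left out. The block without replicate 3 was added after seeing the data. Fits were tested on simulated data. Tables used Python 3.11.15 with pandas 2.3.3.

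Named genes were those called, the 5 highest and 5 lowest fold changes at an unadjusted p-value under 0.05 with the same direction in all pairs and a mean RPKM of at least 1, genes the study names for Tregs, and for each of 25 lists the called members or else the 3 with the lowest p-values. Acvr1c, Zfp747, Sema7a, Mir7014, Eid3, Mir17hg, Fam19a1, Fam19a2, S100a9, Itgax, Flt3, Zbtb46, Xcr1 and Siglech were named after their values were seen. For these genes, fold changes without IL-2 replicate 3 are not given. The members and lists were chosen with earlier results of these data known.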

Additional observations from a re-analysis of the deposited data

Results flagged for a closer look

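The 10 called genes were set beside the single CD8+ pair at 4 hr. For Ticrr, the CD8+ log2 ratio of RPKM + 1 (IL-2-REH over IL-2) was 0.024, on the other side of 0 from all 3 Treg pairs (-1.17, -1.05 and -0.69). Its CD8+ RPKM was 0.431 under IL-2 and 0.455 under IL-2-REH, and the difference between the cell types was not tested.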

How the results depend on the processing

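The 4 genes called at 4 hr were also called with RLE scaling and with the longest transcript, and 3 were without a filter. The count was 10 with the replicate block, 59 with DESeq2, 10 with a mean RPKM of at least 1, 0 with limma at either pseudocount, 0 in fits of the 6 libraries alone with or without the block, and 0 to 5 with libraries left out (5 without IL-2 replicate 3, 0 without IL-2-REH replicate 2 or 3, and 0 with the block and without replicate 3). At 1.5 hr the count of 2 became 15 with DESeq2, 0 with limma at either pseudocount, 0 with the 6 libraries alone, 1075 with those and the block, and 0 to 1 with libraries left out. The replicate block changed no other call beyond those given. The median over genes raised by IL-2, with the list rebuilt in each fit, was -0.47 with DESeq2 (333 genes), -0.54 with limma on log2(RPKM + 1) (97), -0.77 with only the groups compared (30), -1.04 with the block and without replicate 3 (15), and -1.44 to -0.045 with libraries left out. No value exists without replicate 3, because no gene was then raised. The cause of these shifts was not tested.

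Of 1572 values for 79 named genes under alternatives, 1481 kept direction and side of the threshold, 49 lost and 23 gained the call, and 19 reversed sign, all in genes that no fit called at 4 hr. Ifng was 0.0034 and 0.40 with limma (pseudocount 1 and 0.1), 0.19 with only the groups compared and the block, and -1.07 to 1.70 with libraries left out (1.51 without replicate 2). Nkg7 was -0.98 to 0.37 with libraries left out (0.09 without IL-2 replicate 2). In the same fits, Klrd1 was -0.12 to 2.95 (0.26 without IL-2 replicate 3) and Cd79a -0.61 to 2.53. Hba-a1 and Hba-a2, nearly identical copies, were -3.27 to 3.65 (-0.32 without replicate 3), Retnlg -2.46 to 4.74 (-0.03 without replicate 3) and S100a8 -2.38 to 5.82. With the block and without replicate 3, Hba-a1 and Hba-a2 were -0.29 and Retnlg -0.00773. Of the 19, 12 came without IL-2-REH replicate 3 or without replicate 3 in every group. None came without IL-2 replicate 3 alone, the shallowest library. The part of depth in these values was not tested.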
